A study of Mus musculus with 4 samples.

Results

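The loci of 6 genes that move calcium in heart muscle cells, Ryr2, Atp2a2, Pln, Casq2, Slc8a1 and Cacna1c, were examined for binding of Tbx20, a T-box transcription factor of heart muscle. Each locus was a fixed window around the gene on the mm9 build, and a peak belonged to it when its midpoint lay inside. By this rule 15 of the 4012 peaks in the authors' list fell in the windows, and all 6 windows held at least 1. Slc8a1 had 5 peaks, Cacna1c 4 and Atp2a2 3, while Ryr2, Pln and Casq2 had 1 each. The windows do not show which gene a peak acts on.

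The data came from chromatin immunoprecipitation followed by sequencing, in which an antibody recovers the DNA that a protein occupies and places rich in reads are called as peaks. There was 1 immunoprecipitate, of Tbx20 fused to green fluorescent protein (GFP), made with a goat antibody to GFP from the hearts, taken whole, of CD1 mice at 2 months of age. How the fusion protein was expressed, and how many hearts went into the sample, is not given in the labels. The design names whole heart input as control, and the labels list 3 inputs without antibody, also CD1, at E11.5 for 2 of them and at E9.5 for 1. All 3 inputs are thus embryonic, and none has the age of the immunoprecipitate. Reads that adult heart chromatin would give without antibody therefore cannot be told apart from binding here. Whole heart holds other cells beside heart muscle, so the cells in which a peak arose cannot be told apart. With 1 immunoprecipitate there is no replicate, the read depth is unknown, and the spread between animals cannot be given for any value. Intervals on counts of peaks are exact Poisson 95% intervals and cover counting error only. They also treat peaks as independent, although some lie side by side.

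In each heartbeat calcium enters the cell through the L-type channel, whose pore is encoded by Cacna1c. This calcium opens the ryanodine receptor Ryr2, which releases a larger store from the sarcoplasmic reticulum, where calsequestrin (Casq2) holds it. The muscle relaxes when the pump SERCA2 (Atp2a2), restrained by phospholamban (Pln), returns calcium to the store and the exchanger NCX1 (Slc8a1) carries the rest out of the cell.

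The 6 windows held more peaks per length than the autosomes did. Their 15 peaks in 2.29 Mb gave 6.55 peaks per Mb (95% Poisson interval 3.67 to 10.8), against 1.67 per Mb for the 3972 autosomal peaks, taken over the 19 autosomes, each from its first peak to its last. The ratio was 3.92 (2.19 to 6.46), and the autosomal density would have given 3.83 peaks. The count was above its own autosomal expectation in 5 of the 6 windows. At Pln, Casq2, Atp2a2 and Slc8a1 that expectation was below 1, so any single peak passed it. Of autosomal tiles of these lengths, 16%, 20.4%, 19.5% and 44% held at least 1 peak. At Cacna1c it was 1.20, and of tiles of that length 43.8% held 0 peaks and 25.3% held 1. The interval lay above the autosomal density in 2 windows, Atp2a2 and Slc8a1, whose counts were reached by 0.872% and 1.13% of tiles of their lengths. At Slc8a1 a count of 4 would also have put the interval above, as its lower limit is 1.09 against the 0.786 expected. A further 2.22% of tiles of that length held 4. Autosomes include long stretches without genes, and windows around other genes were not counted, so the ratio compares these loci with the genome as a whole.

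**Figure D1:**
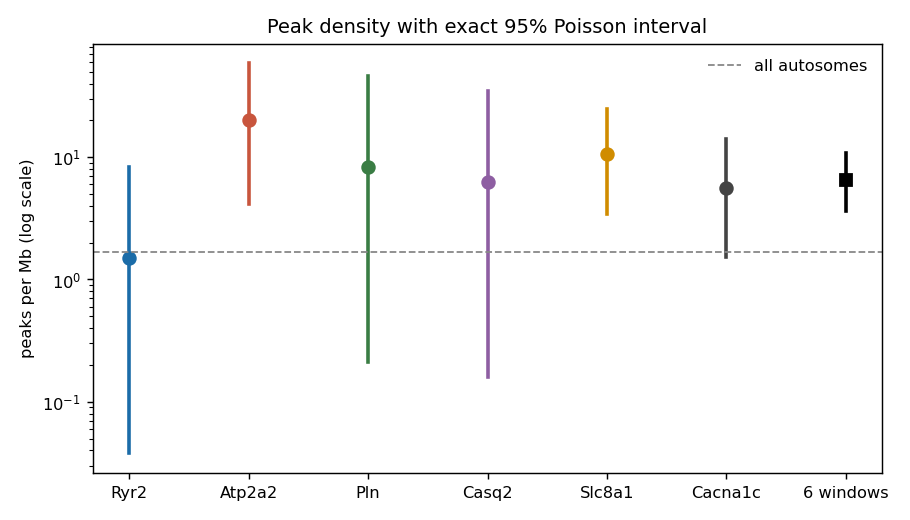
Peaks per Mb (log axis) in each window and in all 6 together, as points with exact 95% Poisson intervals, and the autosomal density as a dashed line. The intervals of Atp2a2, Slc8a1 and the 6 windows together lie above the line, the other 4 windows cross it, and the point for Ryr2 lies just under it.

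In order of density the windows were Atp2a2 at 20 peaks per Mb, Slc8a1 at 10.6, Pln at 8.33, Casq2 at 6.25, Cacna1c at 5.56 and Ryr2 at 1.49. This order carries little weight, because the intervals overlapped in every pair of windows (0 of 15 pairs were apart). In the windows with 1 peak the interval for the count ran from 0.0253 to 5.57 peaks.

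Entry of calcium is represented by Cacna1c (gene ID 12288), the pore of the L-type channel. Its window, on chromosome 6 from 118.48 to 119.2 Mb, held 4 peaks where the autosomal density would give 1.20 (ratio 3.32, 0.905 to 8.51). Of all autosomal tiles of the same 720 kb length, 56.2% held at least 1 peak and 8.48% held at least 4. The strongest peak of the 6 loci lay here, at chr6:119146489-119146799, with a score of 124 and a width of 310 bp. The score is the authors' normalized read number of a peak, and what it was normalized by is not stated, so it serves only to rank peaks within this list. This peak ranked 33 of 4012, and 0.831% of autosomal peaks scored as high or higher.

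The other Cacna1c peaks were weak. A second peak lay 2.88 kb from the strongest, at chr6:119143669-119143865, and scored 9.22. The other two stood alone, at chr6:118786428-118786586 with a score of 12.5 and at chr6:118669586-118669779 with a score of 6.67, the lowest of the 15. The window thus held both the highest and the lowest score of the set, and a stretch of 357 kb without a midpoint separated the close pair from the lone peaks. In the RefSeq promoter table (GRCm38.p6) Cacna1c is read toward lower coordinates. The pair lay at 92.2% and 92.6% of the window counted from its lower edge, on the side where the longest form of such a gene starts. That table lists 3 Cacna1c promoters far apart, beginning at 118757925, 119108446 and 119196360, so shorter forms start further down. These positions were not carried to mm9, and the distance of any peak to a start was not measured. In the gene table Dcp1b overlaps Cacna1c, and no peak was assigned to one of them.

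Release of calcium is represented by Ryr2 (gene ID 20191), the channel of the sarcoplasmic reticulum, and its window was the poorest in peaks. In 670 kb on chromosome 13 from 11.55 to 12.22 Mb there was 1 peak, close to the 1.12 that the autosomal density would give (ratio 0.893, 0.0226 to 4.97), and 53.3% of autosomal tiles of this length held at least 1. The peak, at chr13:12175718-12175864, was 146 bp wide and scored 11.7, a score that 74.1% of autosomal peaks reached. It lay 44.2 kb inside the upper edge, and the 626 kb below it in the window held no midpoint.

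The Ryr2 count depended on where the window ended. Just outside the upper edge, by 5.89 kb, lay a peak at chr13:12225710-12226072 with a score of 63.3, 50.1 kb from the peak inside. A peak 83.6 kb outside, at chr13:12303387-12303734, scored 44.4, and a peak 116 kb outside, at chr13:12336308-12336556, scored 79.9 and stood at place 5 of the deposited list. All 3 outscored the peak inside. Ryr2 too is read toward lower coordinates in the promoter table, so these peaks lie beyond the end of the window at which such a gene starts. Its nearest coding neighbour on that side in the GRCm38.p6 gene table is Mtr, and no peak was assigned to either gene. On the other side the nearest peak was 1748 kb below the window.

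Storage of calcium is represented by Casq2 (gene ID 12373), the calcium-binding protein of the sarcoplasmic reticulum of heart muscle. Its window on chromosome 3 from 101.84 to 102.0 Mb held 1 peak, at chr3:101868560-101868802, where 0.268 would be given by the autosomal density (ratio 3.74, 0.0946 to 20.8). At least 1 peak was found in 20.4% of autosomal tiles of 160 kb. The peak scored 43.5, which 14.3% of autosomal peaks reached, and was 242 bp wide. It was the most isolated of the 15, with no other peak within 317 kb.

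Return of calcium to the store is represented by Atp2a2 (gene ID 11938) and Pln (gene ID 18821). The Atp2a2 window, on chromosome 5 from 122.85 to 123.0 Mb, held 3 peaks where 0.251 would be given by the autosomal density (ratio 12.0, 2.47 to 35.0). Only 0.872% of autosomal tiles of 150 kb held 3 or more peaks, and 19.5% held at least 1. Per length this was the richest of the 6 windows, although on 3 peaks. Only 1 of the 3 was among the 2006 better-scoring peaks of the list. Among those, both Slc8a1, with 4 peaks in 470 kb, and Pln, with 1 peak in 120 kb, were denser than Atp2a2.

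A broad peak led the Atp2a2 locus. It lay at chr5:122970692-122971437, scored 49.6, and with 745 bp was the widest of the 15, a width that 0.680% of autosomal peaks reached. A smaller peak of 228 bp lay 3.39 kb away, at chr5:122974343-122974571, with a score of 15.3. The remaining peak, at chr5:122910900-122911079, scored 12.3 and lay 60.1 kb below the broad one. Outside the window the nearest peaks were 263 kb below and 591 kb above. Anapc7 and Ift81 are the nearest coding genes on either side of Atp2a2 in the GRCm38.p6 table, and whether the window reaches them on mm9 was not checked.

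Pln encodes phospholamban, the small protein that restrains SERCA2 until it is phosphorylated. Its window on chromosome 10 from 53.0 to 53.12 Mb held 1 peak against 0.201 given by the autosomal density (ratio 4.98, 0.126 to 27.8), and 16% of autosomal tiles of 120 kb held at least 1. The peak, at chr10:53052732-53052923, was 191 bp wide and scored 49.8, about the score of the broad Atp2a2 peak. Just outside the upper edge lay an adjacent pair, 35.2 kb away at chr10:53155063-53155247 with a score of 27.7 and 35.4 kb away at chr10:53155335-53155489 with a score of 18.7. In the gene table Cep85l overlaps Pln and Mcm9 is the nearest coding gene above it, so the window alone does not tie a peak to Pln.

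Removal of calcium from the cell is represented by Slc8a1 (gene ID 20541), the sodium-calcium exchanger, which had the most peaks. The window on chromosome 17 from 81.72 to 82.19 Mb held 5 where 0.786 would be given by the autosomal density (ratio 6.36, 2.07 to 14.8). Chromosome 17 is itself rich in peaks, at 2.05 per Mb, and at that density 0.963 would be given. Among autosomal tiles of 470 kb, 44% held at least 1 peak and 1.13% held at least 5.

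The Slc8a1 peaks fell into a group of 3 and a looser pair. The group spanned 31.2 kb near the lower edge. Its peaks lay at chr17:81788035-81788401, chr17:81802096-81802278 and chr17:81819243-81819530 and scored 48.5, 30.4 and 51.9. After 262 kb without a midpoint came chr17:82081026-82081210, with a score of 15.2, and 56.8 kb further chr17:82137768-82137989, with a score of 66.3, the highest of the locus. Slc8a1 is read toward lower coordinates in the promoter table, so the highest-scoring peak lay on the side where such a gene starts, at 88.9% of the window, and the group of 3 toward the other end.

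No peak lay close outside the Slc8a1 window. The nearest peak below the window was 609 kb away and the nearest above 883 kb, with scores of 4.93 and 12.3. All 5 peaks of the window scored higher than both. Such distances were not rare, as 46.7% of autosomal tiles of 670 kb held 0 peaks. Longer ones lay below the Ryr2 window, at 1748 kb, and below the Cacna1c window, at 1278 kb. On their upper sides the nearest peaks were 5.89 kb and 146 kb away.

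**Figure D2:**
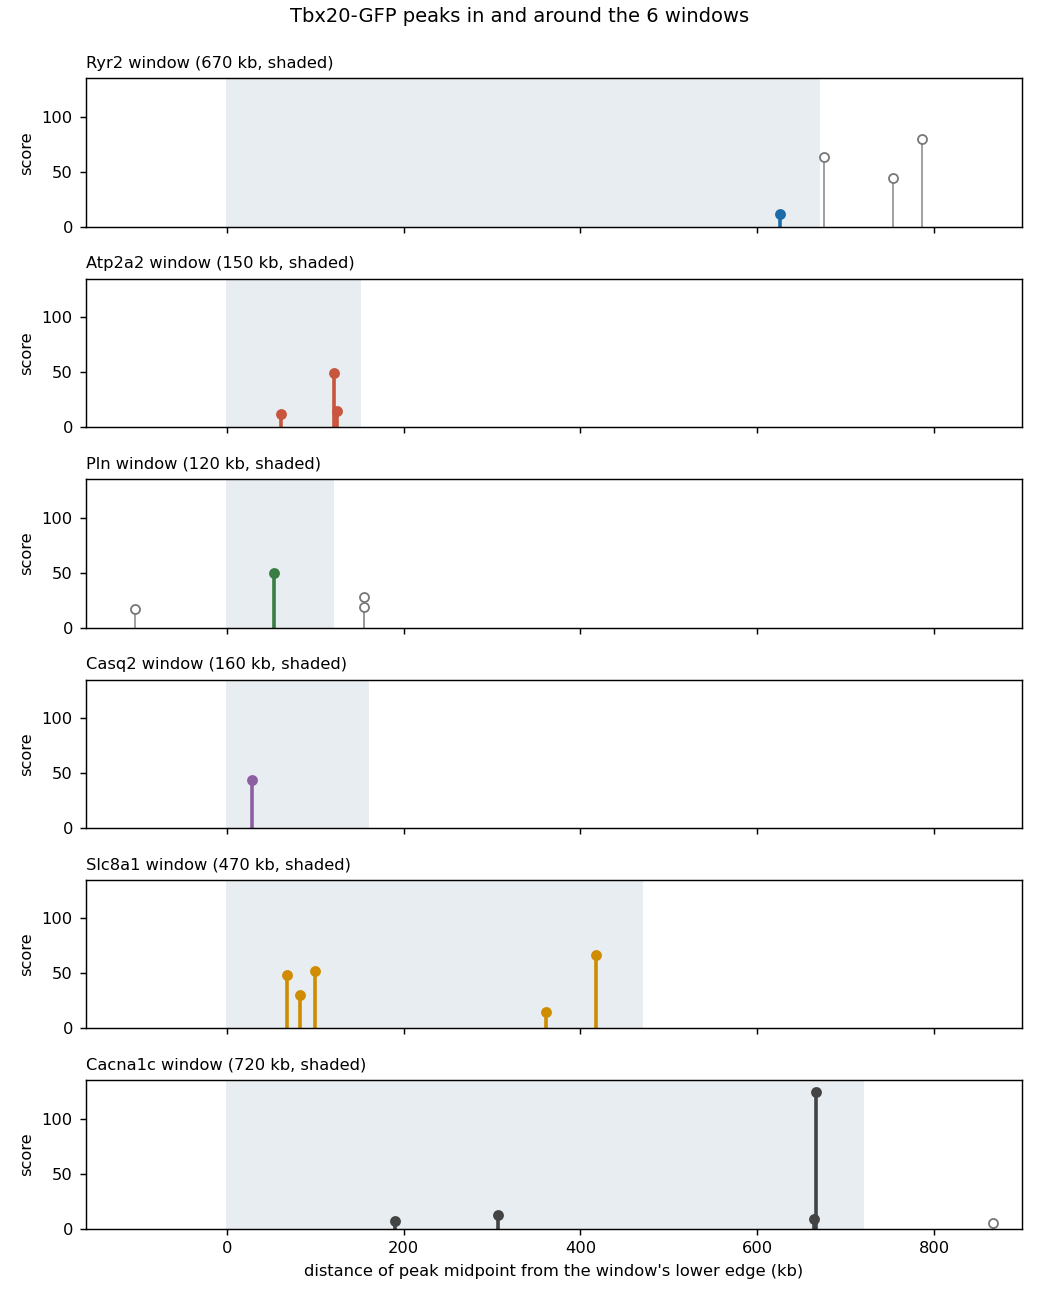
Score of each peak against the distance of its midpoint from the lower edge of the window (kb), 1 panel per gene. Shading marks the window, filled points the 15 peaks inside, and open points peaks up to 150 kb outside. The peak of 124 in the Cacna1c window stands above all others, and the 3 open points to the right of the Ryr2 window, at 63.3, 44.4 and 79.9, stand above the single filled one at 11.7.

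The 15 peaks spanned a wide range of scores. Their median score was 30.4 (lowest 6.67, highest 124) against 22.9 for autosomal peaks, and the 95% interval of their median, from ranks, was 12.3 to 49.8 and includes the autosomal value. Without the 5 Slc8a1 peaks their median score was 13.9, below the autosomal one. A score at or above the median of the list, 22.7, was found in 8 of 15, against 50.3% of autosomal peaks. In the top 10% of scores, from 50.9 up, were 3 of 15, against 10%: the strongest peak of Cacna1c and the Slc8a1 peaks of 51.9 and 66.3. Median width was 196 bp against 226 bp, with an interval of 182 to 287 bp that includes the autosomal value, and 12 of 15 were under 300 bp wide, near the 73.3% of autosomal peaks.

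Each score was also set beside a ceiling that depends on the place of the peak in the deposited list. The ceiling of a peak is the highest score found from its place in the list onward, its own included. By this definition no score can exceed its ceiling. Within 2% of their ceiling were 4 of 15 peaks, against 36.3% of autosomal peaks. These were the strongest of Cacna1c, the peak of Pln and the Slc8a1 peaks of 48.5 and 30.4. The median was 48.7% of the ceiling at the loci and 49.5% on autosomes. The first 2006 places of the list held 8 of 15, against 49.8% of autosomal peaks, and its first 401 places held 4 of 15, against 9.94%. Those 4 were the strongest Cacna1c peak at place 100, the broad Atp2a2 peak at place 104, the Casq2 peak at place 137 and the highest Slc8a1 peak at place 189. The Casq2 peak and the broad Atp2a2 peak therefore stood far higher by place in the list than by score, where they ranked 572 and 427. So did the Cacna1c peak of score 9.22, at place 1020 but rank 3284. The remaining Atp2a2 peaks stood lower by place, 3279 and 3168, than by score, 2864 and 2477.

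**Figure D3:**
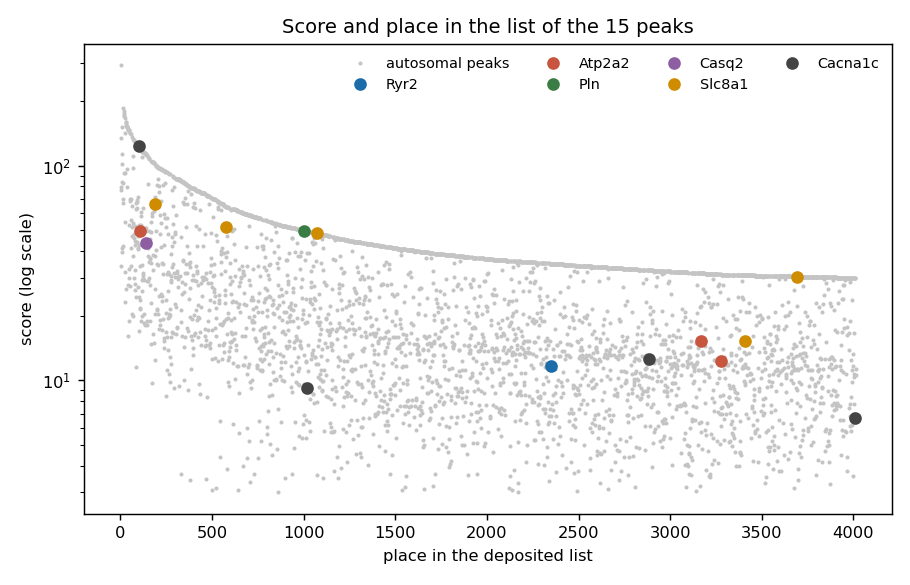
Score (log axis) against place in the deposited list for autosomal peaks (grey) and the 15 peaks of the loci (coloured by gene). The upper edge of the grey cloud is the ceiling, which 4 coloured points touch, and the weakest Cacna1c peak, 6.67, is at place 4006 near the end of the list.

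Neighbouring peaks were found at 2 of the loci at short range. Another peak lay within 10 kb for 4 of 15 peaks, against 11.1% of autosomal peaks, and these were the close pairs at Atp2a2 and Cacna1c. In both pairs a strong peak stood beside a weak one, with 49.6 beside 15.3 and 124 beside 9.22. Another peak lay within 50 kb for 7 of 15, against 31.8%, the further 3 being the Slc8a1 group. From a peak to its nearest neighbour the median was 50.1 kb at the loci and 111 kb on autosomes. Among the 2006 better-scoring peaks alone, 8 of them at the loci, it was 210.4 kb and 257 kb, a gap much smaller in proportion. Among the first 2006 listed, also with 8 at the loci, it was 66.7 kb and 189.7 kb, so these subsets differed.

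**Figure D4:**
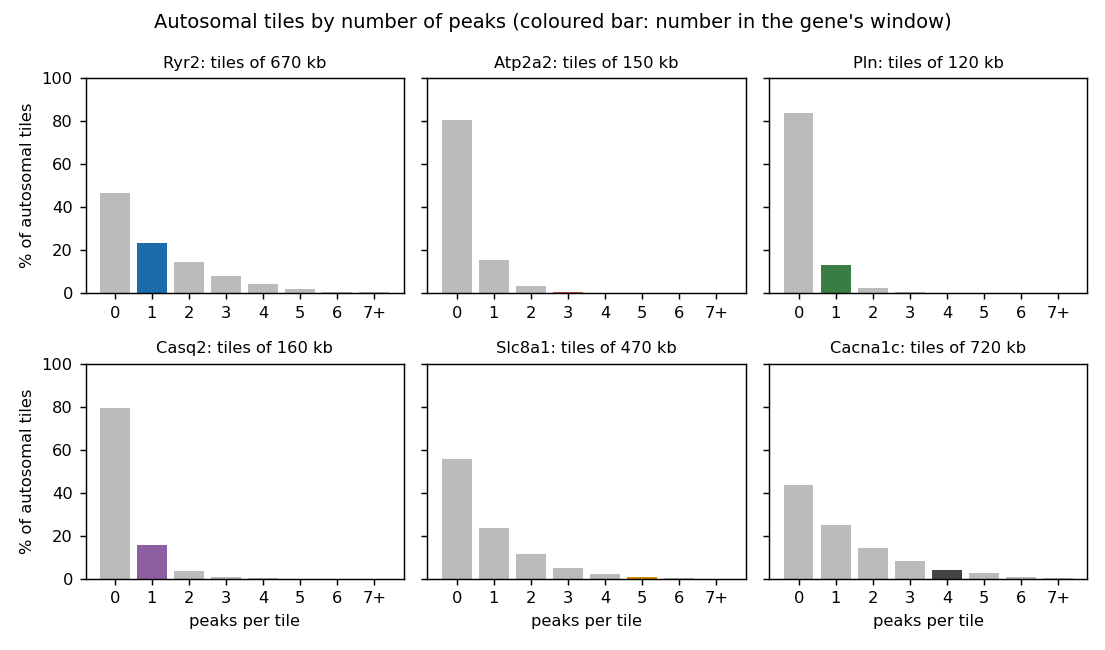
Percent of autosomal tiles by number of peaks per tile, with tiles as long as each gene's window, and the bar of the gene's own count coloured. The counts of Atp2a2 and Slc8a1 sit far out in the tail, where 0.872% and 1.13% of tiles hold as many, and that of Ryr2 sits where 53.3% do.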

How the data were processed

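Per the file headers and notes, the deposited list holds peaks that QuEST accepted, each with a score that the authors describe as a normalized read number (the ef field). Not given in the sources used here are the aligner, the caller's version and thresholds, and what the score was normalized by. The build is mm9 (submitters' processing notes). Positions are printed unchanged, and whether starts count from 0 or 1 is not stated. The 3 inputs were grouped by title and have no values used here.

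The members, windows and lists were chosen with earlier results of these data known. Every peak with its midpoint in a window was named. Counts got exact Poisson intervals, and no test was made over members. Tiles were laid end to end from the first peak of each autosome. The ranges for medians rest on binomial ranks and treat peaks as independent. Nearest neighbours outside a window, gene orientation and gene lengths (6 of 6 windows were longer than their gene) came by symbol from RefSeq tables on GRCm38.p6, whose orientation was taken to hold on mm9. No coordinates were carried between builds. Peak sequences, distances to start sites, exon or intron position and 28 other calcium genes need mm9 and were not analysed here. Alternatives are in the closing section. On 20 simulated lists with peaks planted inside the window edges, 120 of 120 window counts were recovered. That checks the counting only, not where the edges lie. The analysis used scipy 1.17.1, pandas 2.3.3, numpy 2.4.6 and matplotlib 3.10.9 under Python 3.11.15.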

Additional observations from a re-analysis of the deposited data

How the results depend on the processing

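The windows were denser in peaks than the autosomes under all 15 alternatives run, with a ratio from 2.56 to 5.17 beside the 3.92 reported. The lowest came from counting only autosomal 1 Mb tiles with a peak, and the highest from leaving out Ryr2. Leaving out each window in turn, chosen after seeing the data, gave 3.29 (without Slc8a1) to 5.17. Joining midpoints less than 10 kb apart, also added then, left 13 sites and a ratio of 3.61. The count fell from 15 to 8 both in the 2006 better-scoring peaks and in the first 2006 listed, which cover fewer peaks by construction, and the ratio there was 4.15 and 4.19. Neither set held the Ryr2 peak, both held 1 Atp2a2 peak in place of 3, Cacna1c went from 4 to 1 and 2, and Slc8a1 from 5 to 4 and 3. Among the better-scoring peaks the median spacing was 210.4 kb, against 257 kb on autosomes. Among the first 2006 listed it was 66.7 kb, against 189.7 kb. Extending the windows by 100 kb raised the count to 19, with 3 peaks for Ryr2 and 3 for Pln. The median score depended on Slc8a1: without that window it was 13.9 in place of 30.4. Merging peaks less than 500 bp apart, or counting any overlap, left 15. No paired analysis was possible because there was 1 immunoprecipitate and no test between samples. Without read totals, weak binding below the authors' threshold could not be assessed.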

Other observations

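The letters of the T-box motif were looked for, on both strands, in the RefSeq promoters (GRCm38.p6, 250 bases before to 50 after a start) of the genes. The table held 7 promoters, 3 for Cacna1c and 1 each for Ryr2, Pln, Casq2 and Slc8a1. It held none for Atp2a2, so that gene was not searched. None of the 7 held AGGTGTGA, GGTGTGA or the shorter GGTGTG, each of which contains the next. Of all 32851 promoters in the table, 1.28%, 3.98% and 19.0% did. The peaks themselves could not be read, so this says only that these letters were not in these promoter stretches.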
